A study of Rattus norvegicus with 6 samples.

Results

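To describe genes that were silent in control cardiac fibroblasts and carried reads in the comparison group, 84 genes were taken from 21857 gene symbols by their read counts. Each had at most 3 counts in each of the 3 Vector libraries and at least 10 in each of the 3 libraries labelled FTO overexpression. Symbols starting with Cxcl, Ccl, Csf, Mmp, Il1, Ifi, Oas, Mx, Gbp, Trim or Kcn were left out, which removed 15 of the 99 genes past both thresholds. The members were chosen by the counts of this contrast, so their levels and ratios are given as a description with no test. The classes of proteins used below were assigned by hand from gene names.

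The libraries came from neonatal rat cardiac fibroblasts (NRCFs), a primary culture of heart cells from Sprague-Dawley pups taken within 3 days of birth (the strain label reads "Noway"). The Vector group, with the genotype label WT, received an empty plasmid, and the FTO group received rat FTO cDNA in a pcDNA plasmid, for 48 h. FTO is a demethylase that removes the N6-methyladenosine mark from RNA. All cells were therefore transfected, and the labels name no separate cultures or animals, so p-values below measure the spread between libraries, which may be technical.

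Total counts ran from 13178952 to 17857999 per library. Fto itself was at 88.3 ± 1.2 CPM (counts per library size, with TMM scaling) in Vector and at 92.3 ± 1.32 CPM in the other group (SD, 3 libraries each). The log2 difference was 0.06 (SE 0.0468), and its adjusted p was 0.239 in the edgeR quasi-likelihood test with Benjamini-Hochberg adjustment. The Fto values of the FTO group lay above those of Vector without overlap, as in 35.5% of tested genes, but no rise was called. The paper reports that transfection was checked by qRT-PCR and by FTO protein. The first reads FTO mRNA, as these libraries do, and the rise it reports was not called here. The protein is not measured by these libraries, and the reason for the difference in mRNA was not tested. The name libraries labelled FTO is used throughout. All 8 fibroblast markers had reads in each library and each differed between the groups in the edgeR test, 5 being higher and 3 lower in the FTO group. Of all tested genes 65.9% differed, with 33.2% higher and 32.8% lower. Col3a1 fell from 10699 to 3338 CPM and Dcn rose from 47 to 5611 CPM, so that the sums of the list overlapped (12712 to 12856 and 12408 to 12906 CPM) although its genes changed.

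Cardiac fibroblasts build the matrix of the heart and also sense infection and injury. Type I interferon and inflammatory cytokines act on them through JAK-STAT and NF-kB signalling, and genes that are nearly silent at rest can be transcribed after such signals. Interferon-stimulated factors bind a promoter element with paired GAAA repeats, the interferon-stimulated response element (ISRE). Rsad2, also called viperin, is a classical interferon-stimulated antiviral gene, and apelin (Apln) is a peptide hormone of heart and vessels.

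Promoter windows of the members were read from RefSeq (build GRCr8, 250 bases before to 50 after the start of the gene), which gave a window for 63 of the 84. The ISRE was searched as GAAA, any 2 bases, GAAA, on both strands. It was found in 9 windows, those of Apol11a, Apol3, Batf2, Cmah, Il23r, Klrk1, Lgals5, Rsad2 and Sectm1a. For 7 of these the match lay before the start, and the stretch around it is shown because the share of members with this motif lay above that of each set of other genes compared. The capitals mark the match.
Rsad2: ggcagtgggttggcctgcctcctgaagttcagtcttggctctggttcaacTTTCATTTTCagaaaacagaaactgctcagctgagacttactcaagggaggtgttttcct
Klrk1: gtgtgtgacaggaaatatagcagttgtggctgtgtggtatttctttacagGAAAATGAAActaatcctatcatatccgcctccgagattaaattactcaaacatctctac
Sectm1a: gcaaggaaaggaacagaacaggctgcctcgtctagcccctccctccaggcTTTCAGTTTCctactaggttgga
Batf2: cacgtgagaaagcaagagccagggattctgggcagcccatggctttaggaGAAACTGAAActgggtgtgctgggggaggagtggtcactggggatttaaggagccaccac
Il23r: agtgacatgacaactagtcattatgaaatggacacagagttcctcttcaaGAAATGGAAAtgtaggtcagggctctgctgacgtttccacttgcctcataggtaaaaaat
Lgals5: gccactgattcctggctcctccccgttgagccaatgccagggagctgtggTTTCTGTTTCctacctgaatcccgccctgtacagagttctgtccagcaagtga
Cmah: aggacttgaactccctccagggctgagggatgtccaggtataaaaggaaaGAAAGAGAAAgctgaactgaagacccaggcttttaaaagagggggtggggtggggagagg
Each is written 5' to 3' on the strand of its gene. The stretches lie at chr6:48788208-48788317 (minus strand) for Rsad2, chr4:164778429-164778538 (minus) for Klrk1 and chr10:106846935-106847007 (minus) for Sectm1a. Those of Batf2, Il23r, Lgals5 and Cmah lie at chr1:212897223-212897332 (plus), chr4:98003764-98003873 (minus), chr10:64355138-64355240 (minus) and chr17:41067987-41068096 (minus). In Rsad2, Sectm1a and Lgals5 the repeat reads TTTC because the match is on the opposite strand.

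Among the members with a window, 14.3% held the ISRE letters (9 of 63, exact 95% interval 6.75 to 25.4%). The same letters stood in 3.77% of all 27457 windows and in 4.3% of those of 3978 genes that had at most 3 counts in each of the 6 libraries. Among 10230 tested genes that were no member, 3% held them, and among the 3332 of these that were higher, 4.77% did. The interval of the members lay above each of these shares. It covers counting error only, and Apol3 and Apol11a, whose matches lie after the start, are neighbours of one gene family.

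For each of the other 5 motifs the interval of the members included the share of all windows, and for C/EBP and TATA it lay above that of tested genes. The gamma-activated site TTCNNNGAA stood in 7.94% of the members' windows, 8.68% of all windows and 6.83% of those of tested genes. The AP-1 site TGANTCA was in 7.94%, 7.33% and 5.07% in the same order. A C/EBP site, TTGCNNAA, was in 17.5% of the members' windows (interval 9.05 to 29.1%), above the 8.57% of tested genes, but the interval held the 10.5% of all windows and the 12.3% of silent genes. The letters of the TATA box, TATAAA, read on the strand of the gene, were in 12.7% (5.65 to 23.5%). This interval lay above the 4.4% of tested genes and the 5.37% of those that were higher. It held the 9.08% of all windows and the 16.3% of silent genes. These letters were counted anywhere in the window, in members from 250 bases before the start (Mei1) to 20 after it (Car4). The NF-kB site (GGGA, any 2 bases, TTCC) was in 2 windows, those of Retn and Cdhr4, or 3.17% against 1.29% of all windows. In no member window did an ISRE match overlap another motif searched, and 34 windows held none of the 6. A match is only a run of letters, and none of these windows was assayed for binding.

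**Figure D1:**
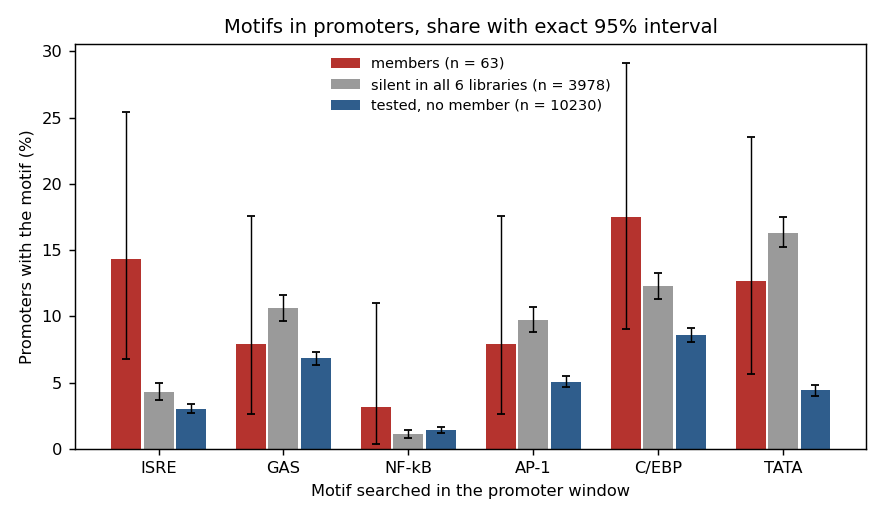
Share of promoter windows (percent, vertical axis) that hold each of 6 motifs, in members, in genes with at most 3 counts in each of the 6 libraries and in tested genes that are no member; bars give the share and whiskers its exact 95% interval. The ISRE bar of the members stands at 14.3%, against 4.3% and 3%, and its whisker lies above both. The whiskers of the members also lie above the tested genes for C/EBP (8.57%) and TATA (4.4%), and span both other bars for GAS, NF-kB and AP-1.

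The members also resembled the silent genes in CpG content. CpG dinucleotides were depleted in their windows, with a median observed over expected ratio of 0.283, against 0.23 in the genes silent in all 6 libraries and 0.765 in the tested genes. A ratio of at least 0.6 was found in 20.6% of the members' windows (13 of 63, interval 11.5 to 32.7%), in 15.1% of the silent genes and in 71.5% of the tested genes. Members with no ISRE in the window were not all alike in this respect. The last 100 bases before the start of Apln, Car4 and Galnt14 are shown as the contrast to the stretches above, since none of the 3 windows holds the ISRE letters and their ratios were 0.507, 0.659 and 0.971.
Apln: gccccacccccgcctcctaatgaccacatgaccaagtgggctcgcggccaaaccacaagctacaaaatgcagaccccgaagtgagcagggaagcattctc
Car4: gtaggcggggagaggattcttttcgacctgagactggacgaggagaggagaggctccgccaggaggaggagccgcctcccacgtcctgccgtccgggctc
Galnt14: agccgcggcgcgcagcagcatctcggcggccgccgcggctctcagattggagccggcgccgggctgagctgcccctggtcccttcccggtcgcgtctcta
These lie at chrX:132091247-132091346 (minus strand), chr10:70325258-70325357 (plus) and chr6:27507778-27507877 (plus) of GRCr8. Of the ISRE carriers shown above, Rsad2 had a ratio of 0.185 and Klrk1 of 0.271.

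**Figure D2:**
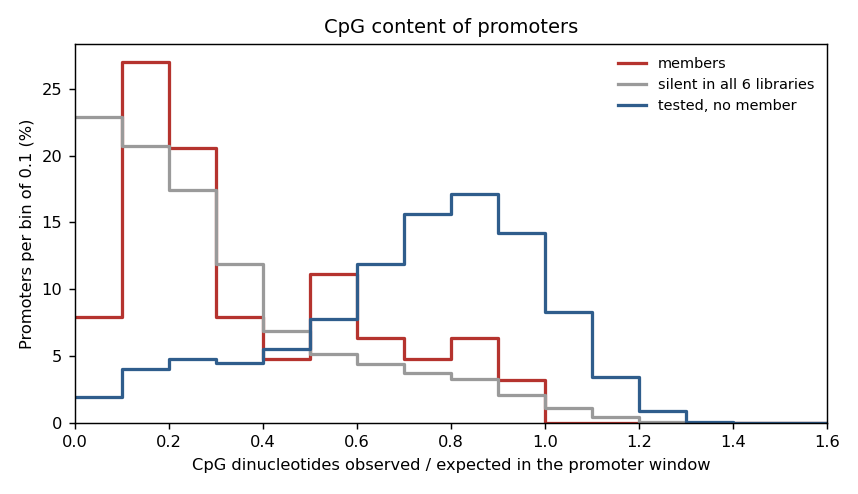
Distribution of the CpG observed over expected ratio in promoter windows (horizontal axis, bins of 0.1; vertical axis, percent of windows). Members (median 0.283) follow the genes silent in all 6 libraries (0.23), and the tested genes (0.765) lie to the right.

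Of the 7562 genes with at most 3 counts in each Vector library, 6934 also had at most 3 in each library labelled FTO, and the 99 past both thresholds were 1.31%. The members held 70, 89 and 69 counts in Vector replicates 1, 2 and 3 and 6674, 5785 and 8266 in the libraries labelled FTO, or 228 against 20725 in all. In 19 members every Vector library was at 0, and 25 had a Vector library at 3. Just inside the Vector threshold lay Galnt14 with 3 counts in each Vector library, Rsad2 with 3, 2 and 3, and Chrnb4 with 3, 3 and 1. Just outside it lay 30 genes with a highest Vector count of 4, among them Il36b (24, 22 and 21 counts in the libraries labelled FTO), Aoc1 (57, 62 and 86) and the tight junction gene Cldn1 (737, 741 and 989). Itih2 and Lgi3 were just inside the FTO threshold with 10, 10 and 22 counts each, and AABR07014241.1 with 12, 10 and 11. Slc51b (26, 9 and 18), Cidec (11, 9 and 19) and Sez6l (12, 9 and 17) were just outside. The mirror image, at least 10 counts in each Vector library and at most 3 in each library labelled FTO, held 56 genes. This count kept all symbols, and 55 remained with the same symbols left out.

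**Figure D3:**
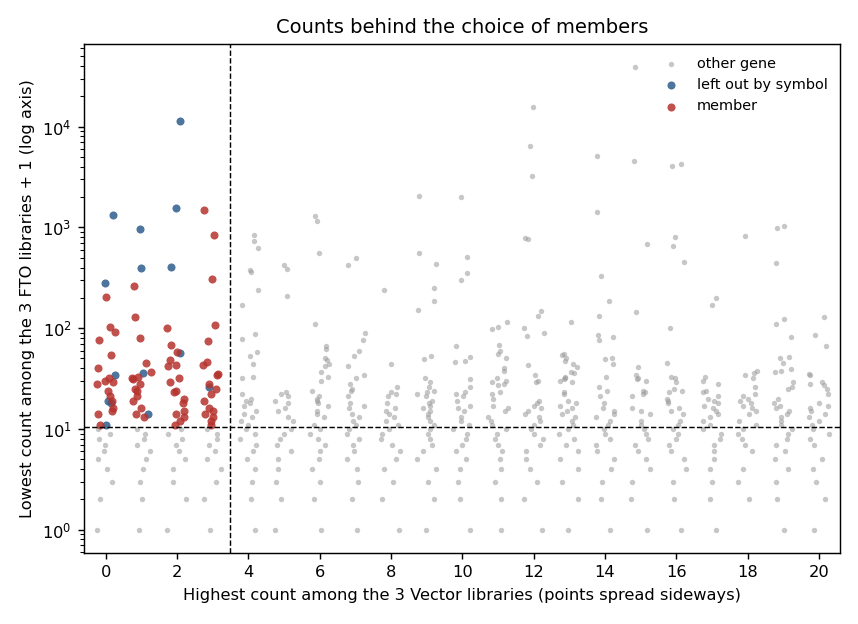
Highest Vector count (horizontal axis, 0 to 20, points spread sideways) and lowest count in the libraries labelled FTO plus 1 (vertical axis, log scale), 1 point for each distinct pair of values and kind of gene; dashed lines mark the thresholds of 3 and 10. Most members lie close above the lower line, as 61 of the 84 had a mean under 50 counts.

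Most members stayed low in the libraries labelled FTO. Their mean CPM there ran from 0.737 to 126 with a median of 1.96 and middle quartiles of 1.2 and 3.47, while the median tested gene was at 25.9 CPM and 10.3% of tested genes lay below the median member. Rsad2 and Apln held 41.7% of the members' counts and the 5 members with most counts 55.8%. CPM also grows with transcript length, which was not used here, so the order of members is not an order of transcript numbers. In these bulk libraries, more cells that express a gene and more RNA per cell cannot be told apart. The 3 libraries labelled FTO resembled each other, since the members summed to 468, 437 and 462 CPM, and the highest value fell in replicate 1 for 27 members, in replicate 2 for 25 and in replicate 3 for 32. The CV between the 3 libraries was at most the CV of counting alone in 44 members and over 1.5 times as large in 24. Tmprss2 and Elf5 had CVs of 8.72 and 3.17%, below their counting CVs of 9.51 and 10%. Galnt14 had a CV of 8.8% against 5.53% from counting. Car4, Cdh7 and Snap25 differed more between libraries, with 26.7, 46 and 53.4% against 5.08, 15.7 and 18.1% from counting.

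No Vector library overlapped a library labelled FTO for any member, as the rule requires, and in 35.5% of all 12941 tested genes the groups were separated in this direction. The filter of edgeR kept 79 members, and each of these was called higher, where 33.2% of all tested genes were. Nothing is read from either count. Dll1, Lipm, Vat1l, S100a5 and AABR07014241.1 did not pass the filter. In what follows a ratio is that of pooled counts per pooled library size, with an exact 95% interval for counting error, and for members at 0 in all 3 Vector libraries it is a lower bound against 3 counts over the group.

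Among 7 secreted proteins, apelin (Apln), a peptide ligand with effects on heart contraction and vessel tone, had 0, 0 and 3 counts in Vector and 939, 848 and 1142 in the libraries labelled FTO. This was 64.6 ± 1.14 CPM, a ratio of 925 (interval 316 to 4488), and the 3 values lay within a narrow range. Camp encodes cathelicidin, an antimicrobial peptide of neutrophil granules and epithelia, and had 1, 0 and 3 counts against 73, 89 and 76. Retn encodes resistin, a cysteine-rich hormone of fat cells and macrophages, and had 0, 1 and 2 counts against 57, 74 and 97. Lgals5, a rat galectin that binds galactosides, had 1, 0 and 1 against 22, 13 and 29. The 3 others, Prl8a2, Itih2 and Lgi3, lay between 0.895 and 1.36 CPM. Apln was thus the only secreted member above 10 CPM.

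Surface proteins of the immune system numbered 11. Klrk1 (NKG2D), an activating receptor of natural killer and T cells, had no count in Vector and 272, 203 and 304 counts in the libraries labelled FTO, at least 246-fold higher. Sectm1b and Sectm1a belong to the family of the CD7 ligand K12. Sectm1b had 0, 2 and 2 counts against 114, 100 and 146, and Sectm1a had 1, 0 and 0 against 92, 78 and 116. Cd7 itself, a T cell surface protein, was also a member, with 0 counts in Vector and 23, 36 and 36 in the libraries labelled FTO. In the RefSeq gene order Cd7, Sectm1b and Sectm1a stand side by side on chromosome 10. Ly6al, a small surface protein of the Ly6 family, had 0 counts against 97, 76 and 109. Il23r, the specific chain of the interleukin-23 receptor, had 0 counts against 28, 30 and 36, and Tnfrsf14 (HVEM), a receptor of the TNF family, 0 against 25, 23 and 30. The 7 not among the 4 with most CPM lay between 0.923 and 2.33 CPM. They were Cd7, Il23r, Tnfrsf14, Cd69, Vtcn1, Gp6 and the class I gene RT1-CE6. RefSeq lists RT1-CE6 as a long non-coding RNA, so its place among the surface proteins rests on its name alone.

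Of 8 other surface proteins, Lrrc4, a synaptic adhesion protein that binds netrin-G, had 2, 0 and 3 counts against 106, 109 and 129 (7.62 ± 0.539 CPM). Cdhr4, a cadherin-related protein, had 0, 1 and 0 against 36, 47 and 77. Lypd6b, a Ly6-domain protein that modulates nicotinic receptors, had 1, 1 and 3 against 42, 50 and 43. Cdh7, a neural cadherin, had 0 against 27, 56 and 39, with replicate 2 the highest, and a CV of 46% against 15.7% from counting. Asgr1, Mmd2, Gprc5d and the Notch ligand Dll1 lay between 1.05 and 1.62 CPM.

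Enzymes outside lipid metabolism numbered 9 and held the widest range. Rsad2, a radical SAM enzyme that makes a chain-terminating nucleotide against viruses, had 3, 2 and 3 counts in Vector and 2020, 1487 and 2210 in the libraries labelled FTO. Its mean was 126 ± 14.8 CPM and its ratio 677 (343 to 1569), and it was the one member above 100 CPM. Car4, a carbonic anhydrase anchored to the outer membrane that hydrates carbon dioxide, had 1, 0 and 0 counts against 322, 260 and 579, with replicate 3 the highest. Galnt14 starts O-linked glycosylation by adding GalNAc to proteins in the Golgi. It had 3, 3 and 3 counts against 310, 314 and 356, a ratio of 103 (54.1 to 226). Tmprss2, a serine protease of epithelial membranes, had 0 counts against 112, 101 and 119, at least 105-fold higher. The other 5, Xpnpep2, Adcy8, Hdc, Hgd and Cmah, lay between 1.33 and 3.24 CPM. Hdc makes histamine from histidine, and Xpnpep2, a membrane aminopeptidase, is the direct neighbour of Apln in the RefSeq order of chromosome X.

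Lipid, retinoid and steroid enzymes numbered 8 and were all below 5 CPM. Aox3, an aldehyde oxidase, had 0 counts in Vector against 66, 39 and 112, and replicate 3 was the highest. Akr1c3, an aldo-keto reductase that acts on steroids and prostaglandins, had 2, 3 and 0 against 62, 45 and 85. Lrat, which stores retinol as retinyl ester, had 3, 0 and 2 against 48, 34 and 52. Sult2b1, a sulfotransferase of cholesterol, had 1, 3 and 0 against 35, 37 and 33. The others were Ces1d, Sdr9c7 and the neighbouring lipases Lipn and Lipm, between 0.952 and 1.64 CPM.

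Transporters and channels numbered 7, and none reached 3 CPM. Slc39a4, a zinc importer of the plasma membrane, had 0, 0 and 1 counts against 30, 43 and 60. Slc25a21, a mitochondrial carrier of oxodicarboxylates, had 0, 2 and 1 against 31, 35 and 67. Xkrx, an XK-related membrane protein, had 1, 3 and 2 against 27, 28 and 33. Aqp3, a channel for water and glycerol, had 0 against 15, 16 and 24. Cacna2d3, Chrnb4 and Asic5, all parts of ion channels, lay between 1.1 and 1.15 CPM.

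Transcription factors were few, 3 of the 84. Elf5, an ETS factor of mammary and placental epithelium, had 0 counts in each Vector library against 91, 90 and 119, at least 94.7-fold higher. Lhx8, a LIM homeobox factor of forebrain neurons and tooth germs, had 1 count in each Vector library against 56, 44 and 58. Batf2, a leucine zipper protein of interferon-treated macrophages, had 1, 0 and 0 against 28, 20 and 24.

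The remaining classes were 19 other intracellular proteins and 12 loci without a gene name in the files. Rtp3, a chaperone of the receptor transporter family, had 1 count in each Vector library against 159, 127 and 194. Hsh2d, an SH2 adaptor of blood cells, had 0, 1 and 2 against 71, 67 and 89, and the 3 libraries lay between 4.97 and 5.06 CPM. Apol3, an apolipoprotein L, had 2, 2 and 0 against 42, 56 and 81, and Mroh2b, a HEAT-repeat protein, 0, 2 and 0 against 47, 49 and 68. The 15 others ranged from 0.804 to 3.13 CPM and included Serpinb10, Snap25, Rasgrf1 and the ciliary dynein Dnah7. Among the loci, LOC497963 had 0 counts against 53, 63 and 89, LOC100910270 1, 1 and 0 against 56, 31 and 55, and AC128059.3 0, 1 and 1 against 24, 36 and 55. RGD1305184, listed by RefSeq as Ifgga4l, had 0, 0 and 1 against 37, 32 and 33. How reads shared by near-identical copies were counted is not given in the sources used here, so the counts of Apol3, Apol11a, Akr1c3, Lgals5, RT1-CE6, Ly6al, Ces1d, Prl8a2 and the Sectm1 genes are uncertain to that extent. The same holds for genes that overlap others or lie antisense to them.

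**Figure D4:**
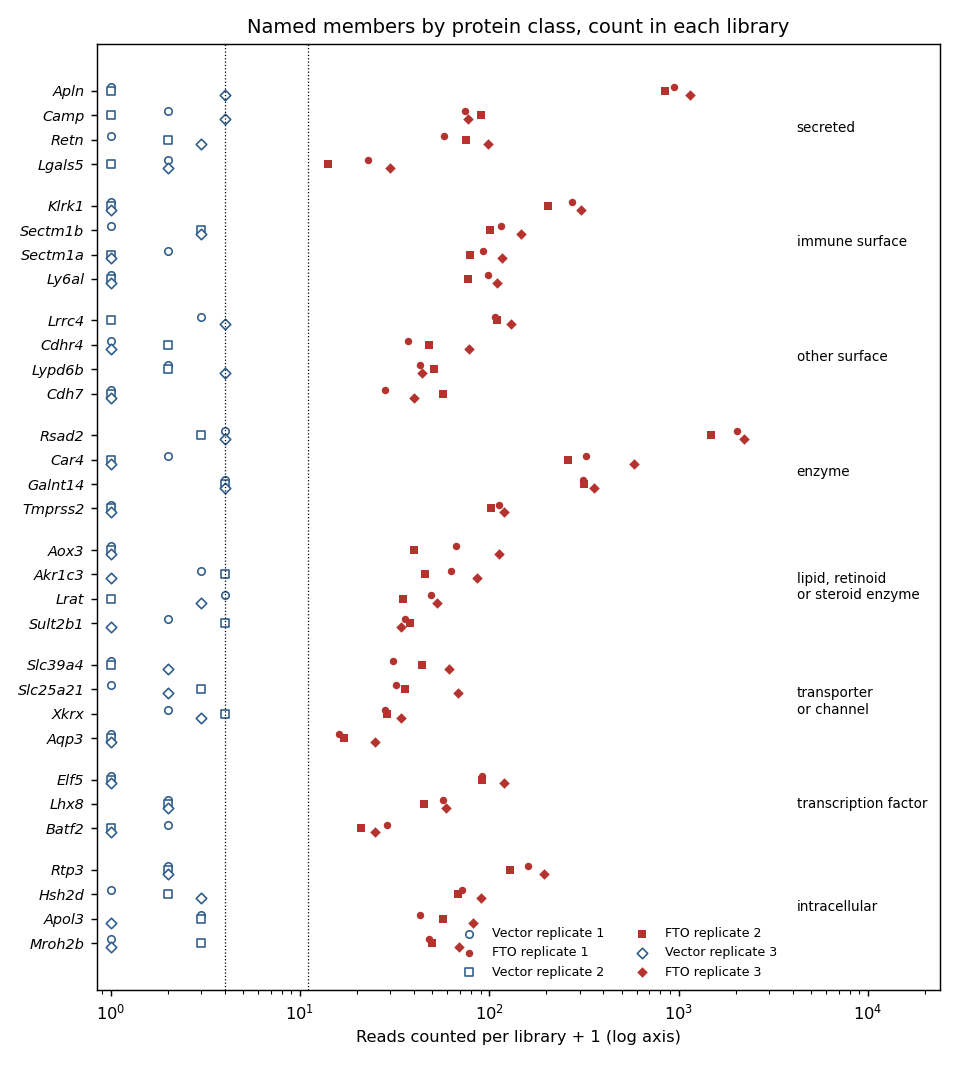
Counts plus 1 (horizontal axis, log scale) of the 4 members with most CPM in each of 7 protein classes and of the 3 transcription factors, for each Vector (open) and FTO (filled) library; the dotted lines mark the thresholds of 3 and 10 counts. Rsad2 (1487 to 2210 counts) and Apln (848 to 1142) stand to the right of all other members.

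To see whether the known partners of the members were present, genes that work with them were read in the same table. They were chosen with the members known and are no member themselves. Cmpk2, the nucleotide kinase next to Rsad2 that feeds it with CTP, rose from 33, 40 and 31 counts to 950, 748 and 1033, a log2 fold change of 4.63 (SE 0.115). Batf2 pairs with Jun proteins and works with Irf factors. Irf1 rose by 0.97 on the log2 scale (SE 0.0685), Irf8 by 0.56 (SE 0.126) and Junb by 0.77 (SE 0.0579), while Jun fell, with -2.03 (SE 0.0687). Adjusted p-values in the edgeR test were at most 0.00117 for these 5 genes.

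Receptors and adaptors were examined next. Klrk1 signals through the adaptors Hcst and Tyrobp. Hcst had 9, 9 and 13 counts in Vector and 1, 5 and 4 in the libraries labelled FTO, and Tyrobp fell from 603, 639 and 629 to 128, 146 and 159 (log2 fold change -2.18, SE 0.0884, adjusted p = 6.7e-12 in the edgeR test). Raet1l, a ligand of Klrk1, rose from 30, 39 and 36 to 67, 60 and 107 (log2 fold change 1.07, SE 0.189). The apelin receptor Aplnr had at most 4 counts in each library, and Il12rb1, the second chain of the interleukin-23 receptor, at most 2. Fcer1g, the signalling chain of Gp6, fell as well (log2 fold change -1.96, SE 0.0668).

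Around Dll1, Notch1 and Notch3 fell (log2 fold changes -1.82 and -3.91, SE 0.0944 and 0.089) and Notch2 rose by 0.26 (SE 0.0472). Around Lrat, Rdh10 and Aldh1a2, the dehydrogenases that turn retinol into retinoic acid, rose with log2 fold changes of 0.85 (SE 0.115) and 1.57 (SE 0.0861). Aldh1a1, another retinal dehydrogenase, fell with -5.66 (SE 0.119), and the retinol receptor Stra6 had 4, 10 and 5 counts against 0 in each library labelled FTO. Fah, which follows Hgd in tyrosine breakdown, rose by 0.48 on the log2 scale (SE 0.105). Cap1, a receptor reported for resistin, fell with -0.81 (SE 0.0375). Hrh1 and Hrh2, the histamine receptors read beside Hdc, had at most 5 counts in each library. The other partners read, Il23a, Il12b, Tnfsf14, Btla, Cd160, Hnmt, Fpr2, Chrna3, Chrna5 and Hpd, had at most 12 counts in each library. Stx1a and Vamp2, the SNARE partners of Snap25, were not called, with adjusted p-values of 0.083 and 0.585 in the edgeR test, and Stx1a was called without FTO replicate 3 (log2 fold change -0.55).

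**Figure D5:**
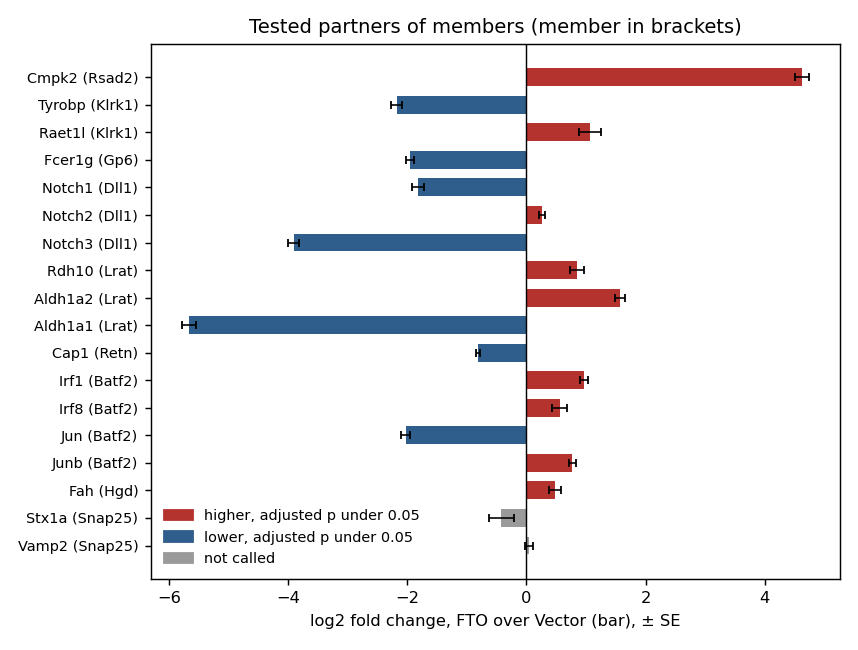
Log2 fold change, FTO over Vector libraries (horizontal axis, bars), with its SE (whiskers) for tested partner genes, with the member each belongs to in brackets; colours give the edgeR call. Cmpk2 (4.63) is the highest, and Aldh1a1 (-5.66) and Notch3 (-3.91) are the lowest.

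Families of the members were compared in the same way, with families chosen after the members were seen. Rtp4, the relative of Rtp3, rose from 13, 14 and 6 counts to 1654, 1434 and 1800, and Apol9a from 26, 29 and 17 to 1490, 1411 and 1761, while no other tested gene stood beside them in those families. Of 13 tested relatives of Galnt14, 4 were higher and 5 lower, among them Galnt18 (log2 fold change -3.14, SE 0.0884). For Car4, 4 of 9 tested carbonic anhydrases were higher, such as Car2 (23, 21 and 28 counts against 154, 143 and 196), and Car3 and Car9 were lower. Of 11 tested relatives of Slc39a4, 5 were higher, including Slc39a14 (log2 fold change 2.65, SE 0.0508), and 2 lower. No tested relative of Adcy8 was higher, and 4 of 8 were lower. The background was 33.2% of tested genes higher and 32.8% lower.

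Neighbours of the members on the chromosomes were also examined, by the RefSeq gene order of GRCr8, in which 77 members could be placed. In 7 pairs, members stood at most 5 places apart, and 6 of these were direct neighbours: Ankef1 and Snap25, Apln and Xpnpep2, Apol11a and Apol3, Lipn and Lipm, Cd7 and Sectm1b, and Sectm1b and Sectm1a. Of 84 tested neighbours that were no member, 44 were higher (52.4%), 17 lower (20.2%) and 23 not called, beside a background of 33.2% and 32.8%. Serpinb2, an inhibitor of plasminogen activators next to Serpinb10, rose from 11, 12 and 6 counts to 15604, 16732 and 19510. Mx2, an interferon-induced GTPase next to Tmprss2, rose from 14, 11 and 6 to 5638, 5151 and 6339. The complement gene C6 next to Mroh2b rose by 4.13 on the log2 scale (SE 0.121), and C7 on the other side was not called (0.15, adjusted p = 0.343, edgeR) except without FTO replicate 2 (0.36). Other members stood alone: Klrd1 and Klrc3 on either side of Klrk1 had at most 2 counts in each library.

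Signalling genes upstream of such members were read from lists of pathway genes, none of which held a member. Their counts may be read beside the 33.2% higher and 32.8% lower among all tested genes. Among 16 tested interferon ligands, receptors and signalling genes, 13 were higher, 1 lower and 2 not called, with a median log2 fold change of 1.15 beside 0.00 for all tested genes. Irf7, the master factor of the type I interferon response, rose from 80, 64 and 67 counts to 21139, 19440 and 24204, and the kinase Jak2 by 3.04 on the log2 scale (SE 0.0471). Irf3, its constitutive relative, fell with -0.33 (SE 0.0556). The ligands Ifnb1, Ifng and Ifnl3 were at 0 counts in all 6 libraries, which allows up to 0.168 to 0.227 CPM in each, and Ifna1 was not analysed here.

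Of 18 sensors of nucleic acids and microbial patterns, 15 were higher and 2 lower (median 1.11). The DNA sensor Aim2 rose from 8, 4 and 3 counts to 270, 240 and 317, and the RNA helicase Dhx58 by 4.96 on the log2 scale (SE 0.101). Mavs, the adaptor of RNA helicases, fell with -0.4 (SE 0.0757), and Nlrp3 with -0.42 (SE 0.131), a call that was lost without FTO replicate 3 (-0.29). Of 19 NF-kB subunits and regulators, 14 were higher and 3 lower (median 1.25). Birc3 rose by 3.58 (SE 0.0977) and Tnfaip3, a feedback inhibitor, by 3.51 (SE 0.0752). Rel and Map3k14 were lower (-0.46 and -0.44, SE 0.155 and 0.138). These calls were lost for Rel without Vector replicate 2 (-0.44) or FTO replicate 1 (-0.43), and for Map3k14 without Vector replicate 3 (-0.33) or FTO replicate 1 (-0.35).

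Cytokine and TNF receptors were higher in 16 of 21 tested genes and lower in 3 (median 0.71). Csf2rb, the shared chain of the receptors for GM-CSF and interleukin-3, rose by 5.50 (SE 0.0636) and the antagonist Il1rn by 3.22 (SE 0.0747), while Il10ra and Csf2ra fell with -1.89 (SE 0.253) and -0.9 (SE 0.102). Ligands of T and natural killer cells were mixed, with 5 higher and 7 lower of 13 (median -0.44), where 33.2% and 32.8% of all tested genes were. Cd274 (PD-L1) rose by 2.05 (SE 0.179) and the cytokine chain Ebi3 by 1.84 (SE 0.175), and the costimulators Cd86 and Tnfsf9 fell with -2.99 (SE 0.214) and -1.17 (SE 0.168). Of the class II antigen presentation genes only Cd74, higher by 1.92 (SE 0.464), and Ctss, lower with -2.09 (SE 0.0637), were tested.

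Enzymes of nitric oxide, prostanoid, itaconate, oxysterol and tryptophan metabolism were higher in 17 of 20 tested genes and lower in 2 (median 1.67). The secreted phospholipase Pla2g2a rose by 11.34 (SE 0.114) and the prostaglandin E synthase Ptges by 7.84 (SE 0.144). Thromboxane synthase Tbxas1 fell with -1.96 (SE 0.121). The leukotriene enzyme Alox5 was lower with -1.11 (SE 0.37), a call lost without Vector replicate 2 (-0.99), FTO replicate 1 (-1.03) or FTO replicate 3 (-0.8). Leukocyte adhesion molecules were higher in 5 of 9 and lower in 4 (median 0.15; 33.2% and 32.8% of all tested genes), with Vcam1 and Selp higher by 5.88 (SE 0.0977) and 5.15 (SE 0.186) and Itga4 and Jam2 lower with -3.33 (SE 0.116) and -2.16 (SE 0.12).

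Several members are known from cells other than fibroblasts, so marker lists of those cells were summed in each library. Counts of called markers, here and in the next paragraph, stand beside 33.2% higher and 32.8% lower among all tested genes. Markers of T and natural killer cells, the cells of Klrk1 and Cd7, went from 33.3 to 36.9 CPM in Vector to 8 to 10.3 CPM in the libraries labelled FTO, with Cd3e, Cd3d and Nkg7 at 0 in all 6. Most of this sum was Cd4 (28.6 to 6.61 CPM) and Cd8a (4.15 to 0.195 CPM), while Klrb1a, a receptor of natural killer cells, rose from 4, 1 and 3 counts to 11, 12 and 18 (log2 fold change 2.23, SE 0.495). Macrophage markers went from 537 to 563 CPM to 130 to 152 CPM, with 7 of 8 lower and Adgre1 higher (2.22, SE 0.133). Neutrophil markers went from 0.951 to 1.39 CPM to 5.92 to 9.14 CPM, but this sum holds the member Camp (0.0936 and 5.36 CPM), whose counts the rule used. Without it the list was mixed: S100a8 rose from 3, 7 and 2 counts to 27, 31 and 29, and Csf3r had 9, 12 and 13 counts against 2, 1 and 1. Mpo and Elane were at 0 in all 6 libraries, and S100a9 had at most 1 count.

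Mesothelial and epithelial markers, beside which Tmprss2 and Elf5 may be read, went from 11.9 to 13.6 CPM to 103 to 115 CPM. Of the 6 tested, 4 were higher and 1 lower, where 33.2% and 32.8% of all tested genes were. Of these markers, Msln rose from 37, 53 and 32 counts to 1294, 1068 and 1612, while Epcam and Cdh1 had at most 7 counts in each library. Endothelial markers went from 24.5 to 25 CPM to 52.9 to 55.8 CPM, with Cldn5 at 0 in all 6, and cardiomyocyte markers from 1348 to 1383 CPM to 2064 to 2123 CPM, with 6 of 7 higher and Tnnt2 lower. Markers of Schwann and neural cells, among which Snap25 is a member, went from 229 to 243 CPM to 89.9 to 94.9 CPM. Mural markers went from 1504 to 1563 CPM to 844 to 945 CPM, with 4 lower, among them Pdgfrb and Myh11, and 2 higher, Abcc9 (2.45, SE 0.0836) and Kcnj8 (4.89, SE 0.11). Dendritic cell markers went from 29.4 to 30.9 CPM to 14 to 14.8 CPM, and mast cell markers from 8.52 to 9.33 CPM to 2.19 to 2.6 CPM, with Cpa3, Ms4a2, Fcer1a and Cma1 at 0. B and plasma cell markers stayed under 1 CPM in every library. The part of these cells in the members' counts was not tested.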

How the data were processed

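RNA of NRCFs was sequenced in 6 libraries, and the values deposited by the authors are raw counts, listed by gene symbol in a table per library. Per the submitters' processing notes, Trimmomatic and rn6 were used. Aligner, counting program, annotation and strand setting are not given in the sources used here. No column of sample values was left unused. Groups came from the genotype labels. Members followed fixed count thresholds, and members and gene lists were chosen with earlier results of these data known.

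The groups were compared with edgeR 4.0.16 in R 4.3.3 by the two-sided quasi-likelihood test (TMM, filterByExpr, no covariate), with Benjamini-Hochberg adjustment over 12941 genes and a threshold of 0.05. The SE was derived from the F statistic. Ratios of pooled counts have exact 95% intervals (scipy 1.17.1) and a floor of 3 counts, and cover counting error only. Total counts per library, from 13178952 to 17857999, make 10 counts worth 0.558 to 0.755 CPM. A member near that threshold has a counting CV of up to 30.2% in a single library. The spread between libraries can be larger, as for Lipm with a CV of 54.7% against 26.7% from counting. The procedure was tested on simulated counts.

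Named were Fto, the 4 members of each protein class with the highest mean CPM, the 3 members nearest to each threshold on either side, and of each pathway list the 2 largest rises and 2 largest falls among called genes. Any other gene named was picked with its values in view. RefSeq (GRCr8) matched 79 of the 84 members, 70 by symbol, 3 by gene ID and 6 by synonym. Of these, 77 were protein-coding genes, RT1-CE6 was a long non-coding RNA and LOC100910801 a pseudogene. RefSeq also gave names, gene order and promoter sequences, of which the first start listed for a gene was used. Since the files were made on rn6, only its own promoter coordinates are printed.

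Alternatives were DESeq2 1.42.0, DESeq2 size factors, library size alone, no filter or a mean of at least 10 counts, the replicate number as a block, other thresholds, other promoter sets and windows, and leaving out each library in turn. Features of the proteins and CPM per length of coding sequence were planned and not run, because no protein or transcript sequences were used here. A result on 1 further gene is not reported here.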

Additional observations from a re-analysis of the deposited data

How the results depend on the processing

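The number of members followed the thresholds: 19, 41 and 133 genes with at most 0, 1 and 5 counts in each Vector library, and 158 and 49 with at least 5 and 20 in each library labelled FTO, against 84. Thresholds scaled to library totals gave 69 genes, 66 of them shared with the 84, and keeping all symbols gave 99. Without 1 library the rule found 87 to 106 genes. The median level stayed between 1.9 and 2 CPM. In the class II list, 5 genes were called with no filter on low counts and 1 with a mean of at least 10, against 2, as the number of tested genes changed. With tested genes as the background, the motif shares were 3% (ISRE), 6.83% (GAS), 5.07% (AP-1), 8.57% (C/EBP) and 4.4% (TATA) in place of those of all windows. In the 250 bases before the start alone, 11.1% of the members' windows held the ISRE (7 of 63, interval 4.59 to 21.6%). The lower end of this interval lay only narrowly above the 4.05% of silent genes and the 4.17% of tested genes that were higher.

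Same-numbered libraries of the groups did not deviate together (correlations of 0.003, -0.069 and 0.021 across genes). With deviations from the mean of 3 libraries per group, this cannot tell whether they were prepared as pairs. With the replicate block, 4218 genes were higher and 4181 lower, and 108 pathway genes were called against 109. DESeq2 called 3961 higher and 3919 lower. Of 162 alternatives to 25 counts, shares or medians, 150 stayed within the set limits and 12 moved. Among 192 single genes, none reversed, and 19 crossed the threshold in at least 1 alternative. Of the genes named in the pathway lists, DESeq2 did not call Rel (-0.47) or Alox5 (-1.08). Protein features and CPM per coding length were not run. The floor of 3 counts limits what a Vector value of 0 can show, and 22 members with a mean under 20 counts rest on little depth.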
